A study of Mus musculus with 4 samples.

Results

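The genes described here are the 10 that control muscle identity, differentiation and cell fusion: the MyoD family (Myod1, Myf5, Myog and Myf6), the fusion factors Mymk and Mymx, the Mef2 genes Mef2a, Mef2c and Mef2d, and Pax7. They were taken by gene symbol from the deposited count table, which holds 23282 different features, and all 10 were found in it. Chromatin-bound RNA was sequenced from C2C12 myotubes, the multinucleated muscle cells formed by an established mouse myoblast line that the labels give as female. Steroid deprivation preceded a treatment of 2 h in both groups, either with vehicle or with 1 µM dexamethasone, a synthetic agonist of the glucocorticoid receptor. Each group had 2 libraries, numbered replicate 1 and replicate 2 in the labels, which do not say what a shared number stands for or whether the libraries came from separate cultures. All p-values therefore measure the spread between these libraries, which may be technical.

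Myod1 and Myf5 encode basic helix-loop-helix (bHLH) transcription factors that commit cells to the muscle lineage, and Myog and Myf6 encode their relatives that act in differentiation. All of them pair with E proteins and bind the E-box, CANNTG, while the Mef2 proteins bind A/T-rich sites in many of the same muscle genes and act together with them. Mymk and Mymx are membrane proteins that join myoblasts into a myotube, Mymk in the merging of the membranes and Mymx in the opening of the fusion pore, and Pax7 is the transcription factor that marks satellite cells and is turned down when they differentiate.

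The sequences upstream of 4 of these genes are shown first, chosen by the values reported below. Myog and Mef2a differed between replicate numbers in one direction, and Mef2d leaned the other way. Both Pax7 values after dexamethasone lay below both of its vehicle values. Mef2c, which differed in the same direction as Myog, is not printed, and its windows are counted below. Each line holds the 250 bases before a gene's start in RefSeq on GRCm38.p6, 5′ to 3′ on the gene's own strand. Capitals mark the E-box CANNTG, the A/T-rich core TATTTA and the glucocorticoid receptor half-site AGAACA, each searched on both strands.
Myog, chr1:134289754-134290003, plus strand: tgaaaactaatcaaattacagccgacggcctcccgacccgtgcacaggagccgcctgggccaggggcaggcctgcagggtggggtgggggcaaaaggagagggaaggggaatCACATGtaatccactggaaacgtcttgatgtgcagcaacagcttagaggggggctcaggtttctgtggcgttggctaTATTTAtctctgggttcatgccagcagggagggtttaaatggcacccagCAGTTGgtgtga
Mef2a, chr7:67372859-67373108, minus strand: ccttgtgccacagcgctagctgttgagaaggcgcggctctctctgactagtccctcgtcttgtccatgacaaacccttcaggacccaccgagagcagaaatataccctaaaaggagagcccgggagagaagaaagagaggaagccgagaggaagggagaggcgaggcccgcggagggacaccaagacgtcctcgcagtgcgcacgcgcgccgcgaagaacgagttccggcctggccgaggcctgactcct
Mef2d, chr3:88142122-88142371, plus strand: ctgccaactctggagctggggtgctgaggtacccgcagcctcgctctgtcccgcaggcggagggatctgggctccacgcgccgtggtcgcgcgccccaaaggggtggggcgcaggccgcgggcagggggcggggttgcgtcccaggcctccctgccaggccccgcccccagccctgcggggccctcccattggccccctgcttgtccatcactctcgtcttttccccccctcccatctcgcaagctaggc
Pax7, chr4:139832969-139833218, minus strand: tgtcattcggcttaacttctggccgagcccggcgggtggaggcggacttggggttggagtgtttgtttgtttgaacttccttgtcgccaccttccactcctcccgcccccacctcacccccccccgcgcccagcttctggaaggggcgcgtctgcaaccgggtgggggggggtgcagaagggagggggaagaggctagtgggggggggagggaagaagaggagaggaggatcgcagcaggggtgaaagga

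The Myog window held 2 E-boxes, CACATG from 138 bases and CAGTTG from 12 bases before the start, and 1 TATTTA from 61 bases before it. The windows of Mef2a, Mef2d and Pax7 held none of these motifs. The promoter table covered 6 of the 10 genes with 8 windows, as Mef2c has 3 starts, and Myod1, Myf6, Mymk and Mymx had no entry. An E-box stood in 3 of the 8 windows, those of Myog and of 2 Mef2c starts, against 66.2% of all 32851 windows of this length. TATTTA, which was added to the search after the Myog sequence had been seen, stood in 1 of the 8 and in 12.7% of all windows. AGAACA stood in 1 of the 8, at a Mef2c start, and in 16.1% of all windows. The full palindromic glucocorticoid response element and the MEF2 consensus, searched by name on both strands, had no match in the 8 windows (0.00913% and 2.92% of all windows). These are matches of letters and not measured binding.

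Because the MyoD and Mef2 genes are paralogs, reads from one could in principle be counted for another. The longest exact stretches that any of their annotated transcripts (GENCODE M21) shared within a family are shown to give their size.
Myod1 and Myf5: CGCAAGGCCGCCACCATGCGCGAGCG
Mef2c and Mef2d: TGCTCAAGTACACCGAGTACAACGAGCC
Myod1 and Myog: AAAGTGAATGAGGCCTTCGAG
They measured 26, 28 and 21 bases, and the other pairs within the families shared at most 17. The search covered exact matches in transcripts without introns, and no read length was set against them. Counting of reads across paralogs was not tested. Overlapping annotation was also looked up, since the strand setting of the counting is not given in the sources used here. Mef2a is overlapped on the other strand by Lysmd4, which had 70 to 436 counts per library against 26814 to 99857 for Mef2a, and on its own strand by the predicted genes Gm44667 and Gm44668, which the table does not list by these names. Mef2d is overlapped by the antisense gene 1700113A16Rik, with 21 to 112 counts against 3652 to 21758. The other 8 genes overlap no annotated gene.

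Library totals ran from 19631435 to 88596296 counts, and levels below are counts scaled to library size (CPM, the usual per-million unit) scaled by TMM. Markers of myotubes had counts in every library, among them Ttn, Myh3, Acta1, Des and Ckm. The dexamethasone libraries carried the response that glucocorticoids are known for: Fkbp5, a co-chaperone of steroid receptors, went from 21.5 and 21.6 CPM in vehicle to 1019 and 697 CPM (log2 fold change 5.32, SE 0.263, edgeR adjusted p 0.0429). Per1 (2.53, SE 0.186), Tsc22d3 (2.72, SE 0.455) and Klf9 (1.62, SE 0.150) were higher in both dexamethasone libraries without passing the threshold, and the receptor gene Nr3c1 was at -1.03 (SE 0.251). By edgeR's quasi-likelihood test 0.0376% of the 13285 tested genes were called at an adjusted p under 0.05, all higher. All 10 myogenic and fusion genes passed the filter on low counts.

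Levels were first compared between the genes, per kilobase of merged exons, as a description. Myog and Mymk stood in the top 3 of the 10 in every library, and Mef2a and Mef2c in the top 4. Myog had 176, 84.5, 196 and 101 CPM per exon kb in vehicle 1, vehicle 2, dexamethasone 1 and dexamethasone 2, and Mymk had 116, 115, 138 and 138 in the same order. Mef2c, at 117, 61.9, 96.5 and 56.7, overlapped with Mef2a, at 98.0, 68.2, 102 and 72.8. Mef2d was next in all 4 libraries with 32.7, 43.2, 29.4 and 38.9. Below it came Myod1 (14.7, 12, 12.1 and 10.0) and Mymx (8.67, 11.3, 9.62 and 15.2), whose ranges overlapped, then Pax7 (5.46, 6.66, 3.06 and 3.90). Myf5 (0.953, 0.506, 1.09 and 0.694) and Myf6 (2.80, 0.146, 3.28 and 0.178) took the lowest places, with Pax7 below Myf6 in dexamethasone replicate 1 alone. Chromatin RNA holds introns, and whether the counts cover them is not stated. Per kilobase of the whole gene the order of the short and long genes shifted. Myog was then first and Mymk second in every library, whereas per exon kilobase Mymk led in both replicate 2 libraries. Pax7 was last per kilobase of the whole gene in both replicate 1 libraries.

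**Figure D1:**
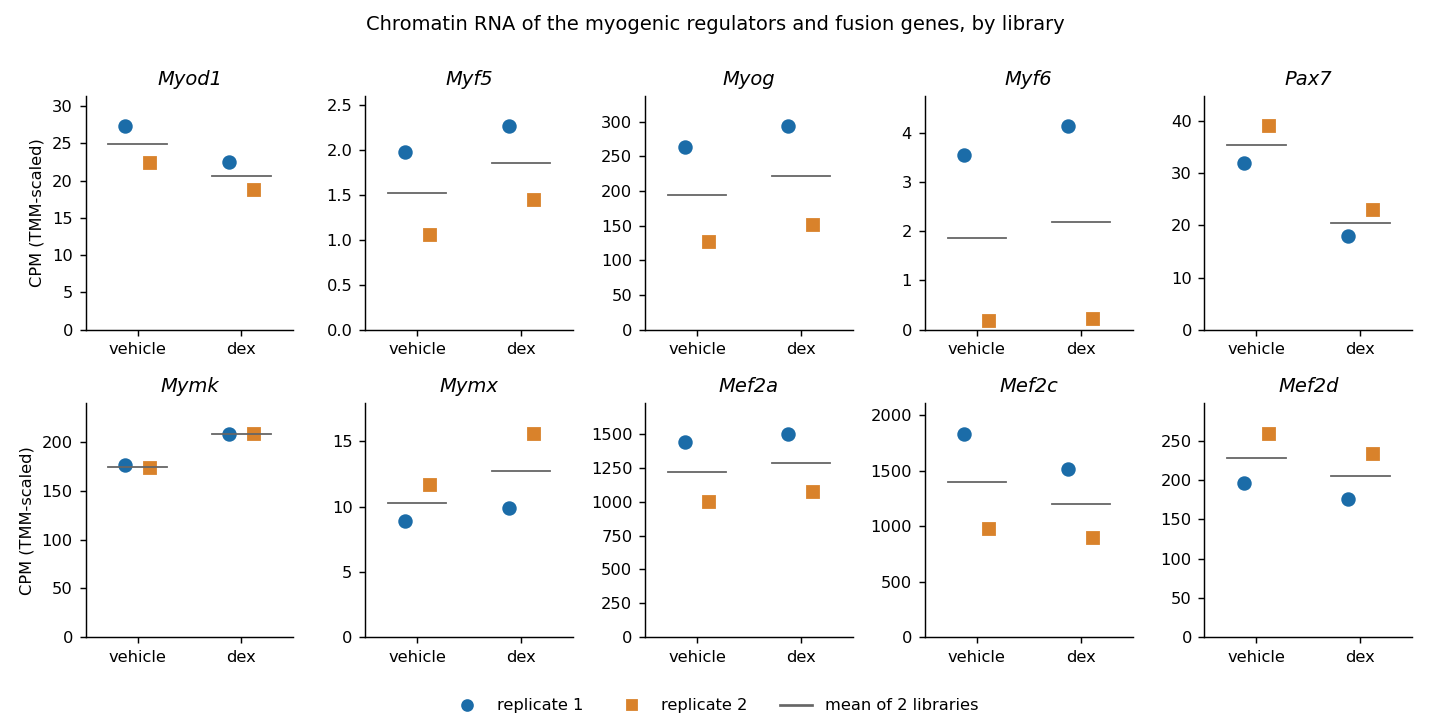
TMM-scaled CPM (vertical axes, from 0, a scale of its own for each gene) of the 10 genes in vehicle and dexamethasone (dex) libraries; circles are replicate 1, squares replicate 2 and lines the mean of 2 libraries. For Myog, Myf5, Myf6, Mef2a and Mef2c both circles lie well above both squares, and for Pax7 both dexamethasone points lie below both vehicle points.

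The comparison that the design implies asks whether these genes change their transcription within 2 h of dexamethasone. None of the 10 was called: by edgeR's quasi-likelihood test with Benjamini-Hochberg adjustment over all 13285 genes, their adjusted p ran from 0.456 (Pax7) to 1.00, and at an unadjusted p under 0.05 there was 1, Pax7, against 5.78% of all genes. The likelihood ratio test of edgeR, limma-voom and the Wald test of DESeq2 called none of them either. A fit with the replicate number as an added term, described in the closing section, did call Pax7 and Mymk. In the fit with treatment alone, the log2 fold changes ran from -0.80 to 0.31, with 6 above and 4 below 0. Their median was 0.13, beside -0.0016 over all genes tested. The groups did not overlap in 1 gene with higher dexamethasone values, Mymk (15.0% of all genes), and in 1 with lower ones, Pax7 (12.9% of all genes). In bulk RNA, fewer cells of a type and less RNA per cell cannot be told apart.

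Pax7 had 596 and 1481 counts in vehicle replicates 1 and 2 and 538 and 2135 in dexamethasone replicates 1 and 2, which is 32.0 and 39.0 CPM against 17.9 and 22.9 CPM. Both dexamethasone libraries thus lay below both vehicle libraries. The means were 35.5 ± 4.99 and 20.4 ± 3.48 CPM (SD, n = 2 each), a 1.74-fold difference with a log2 fold change of -0.80 (SE 0.201, 95% interval -1.33 to -0.27, edgeR unadjusted p 0.0128, adjusted p 0.456). Within replicate 1 the dexamethasone library was at -0.83 on the log2 scale relative to vehicle, and within replicate 2 at -0.77. Pax7 ranked 372nd of all tested genes by p. Leaving out any single library kept its direction, with log2 fold changes of -0.98 to -0.64.

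Mymk, the fusion factor that acts first at the membrane, had the smallest SD within groups, relative to its mean, of the 10. It stood at 176 and 173 CPM in vehicle and at 208 and 208 CPM after dexamethasone, so that the replicate numbers hardly differed and the groups did not overlap. The means were 175 ± 1.76 and 208 ± 0.263 CPM (SD, n = 2 each), and the log2 fold change was 0.25 (SE 0.115, 95% interval -0.050 to 0.56, edgeR adjusted p 1.00). This interval leaves out any fall of more than 0.050 and any rise of more than 0.56 on the log2 scale. Its partner Mymx had 8.90 and 11.6 CPM in vehicle and 9.88 and 15.6 CPM after dexamethasone, with overlapping groups and a log2 fold change of 0.31 (SE 0.298, 95% interval -0.48 to 1.1).

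Myod1 had 27.3 and 22.4 CPM in vehicle and 22.6 and 18.7 CPM after dexamethasone, means of 24.9 ± 3.47 and 20.6 ± 2.74 (SD, n = 2 each). The ranges touched, since dexamethasone replicate 1 lay just above vehicle replicate 2, and the log2 fold change was -0.27 (SE 0.189, 95% interval -0.77 to 0.23). Within each replicate number the dexamethasone library was the lower one, by -0.28 and -0.26 on the log2 scale. Myog had 263 and 126 CPM in vehicle and 293 and 151 CPM after dexamethasone, a log2 fold change of 0.19 (SE 0.483, 95% interval -1.09 to 1.47). Its groups overlapped widely, and the fit with treatment alone leaves out only a change beyond those bounds. Within replicates 1 and 2 the dexamethasone library of Myog was the higher one, by 0.16 and 0.26 on the log2 scale.

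The Mef2 genes were not called by treatment in this fit, and their groups overlapped. Mef2a had 1438 and 1001 CPM in vehicle and 1502 and 1069 CPM after dexamethasone (log2 fold change 0.076, SE 0.270, 95% interval -0.64 to 0.79). Mef2c had 1835 and 973 CPM against 1517 and 892 CPM (-0.22, SE 0.414, 95% interval -1.32 to 0.88), and Mef2d 196 and 259 CPM against 176 and 233 CPM (-0.15, SE 0.221, 95% interval -0.74 to 0.43). Within replicates 1 and 2, dexamethasone minus vehicle was -0.154 and -0.152 for Mef2d on the log2 scale. For Mef2c it was -0.27 and -0.13, and for Mef2a 0.062 and 0.095. The direction was thus the same in both numbers for each of these genes. Myf6, the gene with the fewest counts in any library, also had the widest error of the 10. Myf5, with 37 to 135 counts per library, was at 0.30 (SE 0.471, 95% interval -0.94 to 1.55), and Myf6, with 7 to 124 counts, at 0.24 (SE 1.75, 95% interval -4.38 to 4.87).

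**Figure D2:**
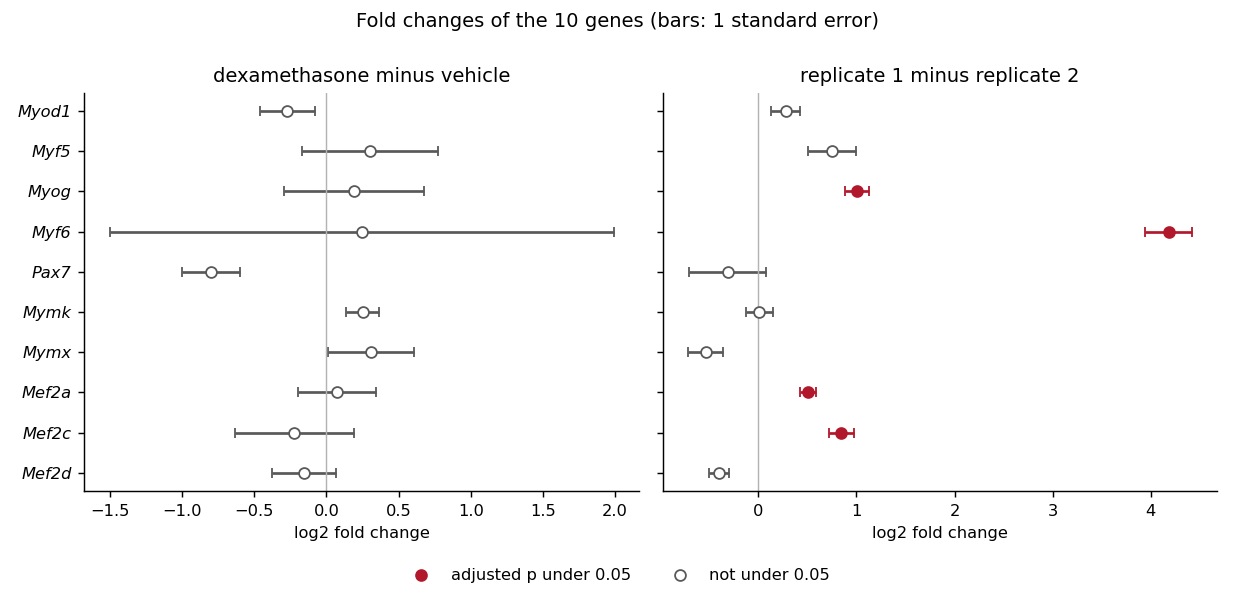
Log2 fold change (horizontal axes) of each of the 10 genes between dexamethasone and vehicle (left) and between replicate 1 and replicate 2 (right), with bars of 1 standard error; filled red points have an adjusted p under 0.05. No point is filled on the left, where Pax7 lies lowest at -0.80, and 4 are filled on the right: Myog, Myf6, Mef2a and Mef2c.

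The same 4 libraries were then compared by replicate number, 2 libraries of each, with the number as the only term. This comparison uses the same data as the one by treatment and is not independent of it, and it was chosen because earlier results had shown the libraries to resemble each other by number. By edgeR's quasi-likelihood test 4 of the 10 genes were called, all higher in replicate 1: Myf6, Myog, Mef2c and Mef2a. Over all genes 9.65% were called, 5.80% higher and 3.85% lower in replicate 1. At an unadjusted p under 0.05 there were 7 of the 10 (34.7% of all genes). The numbers did not overlap in 8 of the 10 genes (63.9%), 6 with the higher values in replicate 1 (31.8%) and 2 with the lower ones there (32.1%). The median log2 difference was 0.39 over the 10 genes and -0.0059 over all genes.

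Myf6, the MyoD family gene that comes on late in muscle differentiation, differed most. It had 66 and 124 counts in the replicate 1 libraries of vehicle and dexamethasone and 7 and 21 in the replicate 2 libraries, although the latter were sequenced more deeply. That is 3.54 and 4.14 CPM against 0.184 and 0.225 CPM, an 18.1-fold difference (log2 4.18, SE 0.241, edgeR adjusted p 0.0173). The exact Poisson 95% intervals, which cover counting error only, were 2.74 to 4.50 and 3.44 to 4.93 CPM in replicate 1 and 0.0742 to 0.380 and 0.139 to 0.344 CPM in replicate 2. They do not meet between the numbers. Myf5, its neighbour on chromosome 10, had 1.98 and 2.27 CPM in replicate 1 and 1.05 and 1.45 CPM in replicate 2, also without overlap, but did not pass (log2 0.75, SE 0.248, edgeR adjusted p 0.118).

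Myog had 263 and 293 CPM in replicate 1 and 126 and 151 CPM in replicate 2, means of 278 ± 21.5 and 139 ± 17.4 (SD, n = 2 each). The difference was 2.01-fold (log2 1.01, SE 0.125, edgeR adjusted p 0.0357). Myod1 had 27.3 and 22.6 CPM in replicate 1 and 22.4 and 18.7 CPM in replicate 2, with the ranges all but touching, and was not called (log2 0.28, SE 0.150, edgeR adjusted p 0.263). Pax7 had 32.0 and 17.9 CPM in replicate 1 and 39.0 and 22.9 CPM in replicate 2, which overlapped (log2 -0.31, SE 0.395).

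The Mef2 family split. Mef2c had 1835 and 1517 CPM in replicate 1 and 973 and 892 CPM in replicate 2, a 1.80-fold difference (log2 0.85, SE 0.129, edgeR adjusted p 0.0420). Mef2a had 1438 and 1502 against 1001 and 1069 CPM, a 1.42-fold difference (log2 0.51, SE 0.0846, edgeR adjusted p 0.0448). Mef2d lay the other way, with 196 and 176 CPM in replicate 1 and 259 and 233 CPM in replicate 2, also without overlap, at -0.40 (SE 0.101, edgeR adjusted p 0.0753). Of the fusion factors, Mymk had overlapping values by number (log2 0.011, SE 0.140), and Mymx was lower in both replicate 1 libraries without being called (8.90 and 9.88 against 11.6 and 15.6 CPM, log2 -0.54, SE 0.180, edgeR adjusted p 0.123).

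With 1 library left out, 1 group holds a single library that is assumed to vary like the others, and none of the 13285 genes was called by replicate number, whichever library was dropped. The log2 differences of the 4 called genes kept their direction in these fits: 4.06 to 4.35 for Myf6, 0.88 to 1.14 for Myog, 0.70 to 0.98 for Mef2c and 0.46 to 0.55 for Mef2a. Scaling by library size alone moved the median of all genes to -0.19, and then Mef2a (0.32, adjusted p 0.0641) and Mef2c (0.66, 0.0503) were not called and Mef2d (-0.59, 0.0432) was.

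**Figure D3:**
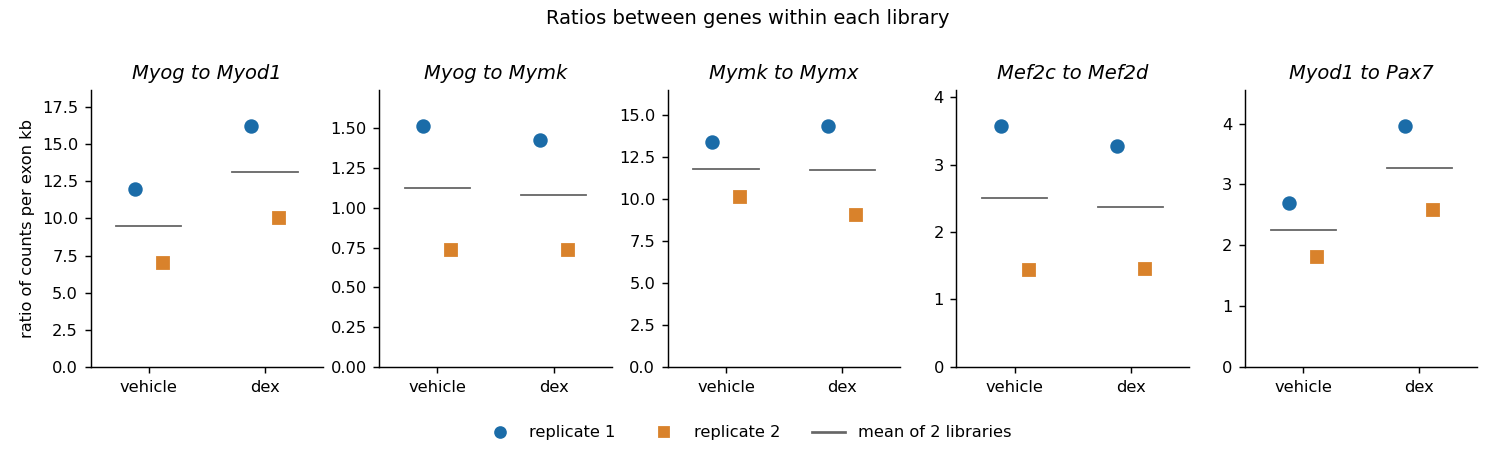
Ratios of counts per exon kilobase between pairs of the genes within each library (vertical axes, from 0); circles are replicate 1, squares replicate 2 and lines the mean of 2 libraries. In all 5 ratios the replicate 1 library is the higher one of its group, and the Mef2c to Mef2d ratio is above 3 in replicate 1 and at 1.43 and 1.46 in replicate 2.

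Ratios between genes of the same library do not depend on the scaling between libraries. Myog exceeded Myod1 per exon kilobase 12-fold and 7.02-fold in vehicle replicates 1 and 2 and 16.2-fold and 10.1-fold in dexamethasone replicates 1 and 2. The groups overlapped, though within each number the dexamethasone ratio was the higher. Mef2c exceeded Mef2d 3.57-fold and 3.28-fold in the replicate 1 libraries and 1.43-fold and 1.46-fold in the replicate 2 libraries. Mymk exceeded Mymx 13.4-fold and 14.3-fold in replicate 1 and 10.1-fold and 9.07-fold in replicate 2. Myf6 exceeded Myf5 2.94-fold and 3.01-fold in replicate 1 and stood at 0.289 and 0.257 of it in replicate 2, so the order of these neighbours turned over. The Myod1 to Pax7 ratio was 2.69 and 1.81 in vehicle and 3.96 and 2.57 after dexamethasone. With 2 against 2 libraries an exact two-sided permutation test cannot go below p = 0.333, so none was made on these ratios.

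Genes that these factors are known to switch on were examined beside them, from lists whose members were chosen with earlier results in view. Of 26 muscle target genes, all tested, 12 were called higher in replicate 1 and 0 lower (46.2%, against 9.65% of all genes), with a median log2 difference of 0.73. Ckm, the muscle creatine kinase, had 53.6 and 50.6 CPM in replicate 1 and 6.98 and 7.72 CPM in replicate 2 (log2 2.82, SE 0.0976, edgeR adjusted p 0.00817). Embryonic myosin heavy chain Myh3 (log2 1.65), desmin Des (1.20), cardiac actin Actc1 (1.29) and titin Ttn (1.51) were also called higher. The acetylcholine receptor genes were uneven: Chrna1 was called (0.73), while Chrnb1 (-0.24), Chrnd (-0.087) and Chrng (-0.037) were not. Summed over the 25 targets other than Ttn, the level was 16562 and 16897 CPM in replicate 1 and 8957 and 8909 CPM in replicate 2. Much of this sum and of its gap came from Neb and Myh3. Neb had 5191 and 5004 against 2444 and 2420 CPM, and Myh3 had 3307 and 3495 against 1088 and 1078 CPM.

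Markers of other cells that such a culture may hold were followed beside these values. The 8 cycling-cell genes, each with counts in every library, summed to 35.2 and 35.9 CPM in replicate 1 and 34.5 and 39.5 CPM in replicate 2, with 0 of 8 called in either comparison. The 9 satellite and reserve cell genes other than Pax7 and Myf5 summed to 793 and 748 against 876 and 790 CPM, with 0 of 7 tested called, and Calcr and Chodl at 1 and 6 counts in all. Itga7 alone made up most of this sum, with 498 and 455 against 537 and 491 CPM. The fibroblast genes, of which Lum, Thy1 and Tcf21 were listed at 0 and 5 were tested, summed to 985 and 1100 against 978 and 736 CPM, with 0 called in either comparison. Most of that sum was Col3a1, with 664 and 852 against 584 and 506 CPM. Both sums thus mainly follow their most abundant gene and say little about the rarer markers. By treatment these sums were 35.2 and 34.5 CPM in vehicle against 35.9 and 39.5 CPM after dexamethasone for cycling cells, 793 and 876 against 748 and 790 for satellite and reserve cells, and 985 and 978 against 1100 and 736 for fibroblasts. Single markers lay apart by treatment without being called. Among them were Sdc4 at 0.68 (SE 0.199) and Notch3 at -0.50 (SE 0.159) of the satellite list. Col1a2 was at -0.59 (SE 0.146) and Pdgfra at 1.04 (SE 0.278) of the fibroblast list. Dexamethasone values lay wholly lower in 3 of 7 tested satellite genes and 3 of 5 fibroblast genes (12.9% of all genes). They lay wholly higher in 1 gene of each list (15.0% of all genes). The median log2 fold change was -0.22 over the tested satellite and reserve genes and -0.51 over the fibroblast genes. The part of any of these in the values of Pax7 and Myog was not tested.

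**Figure D4:**
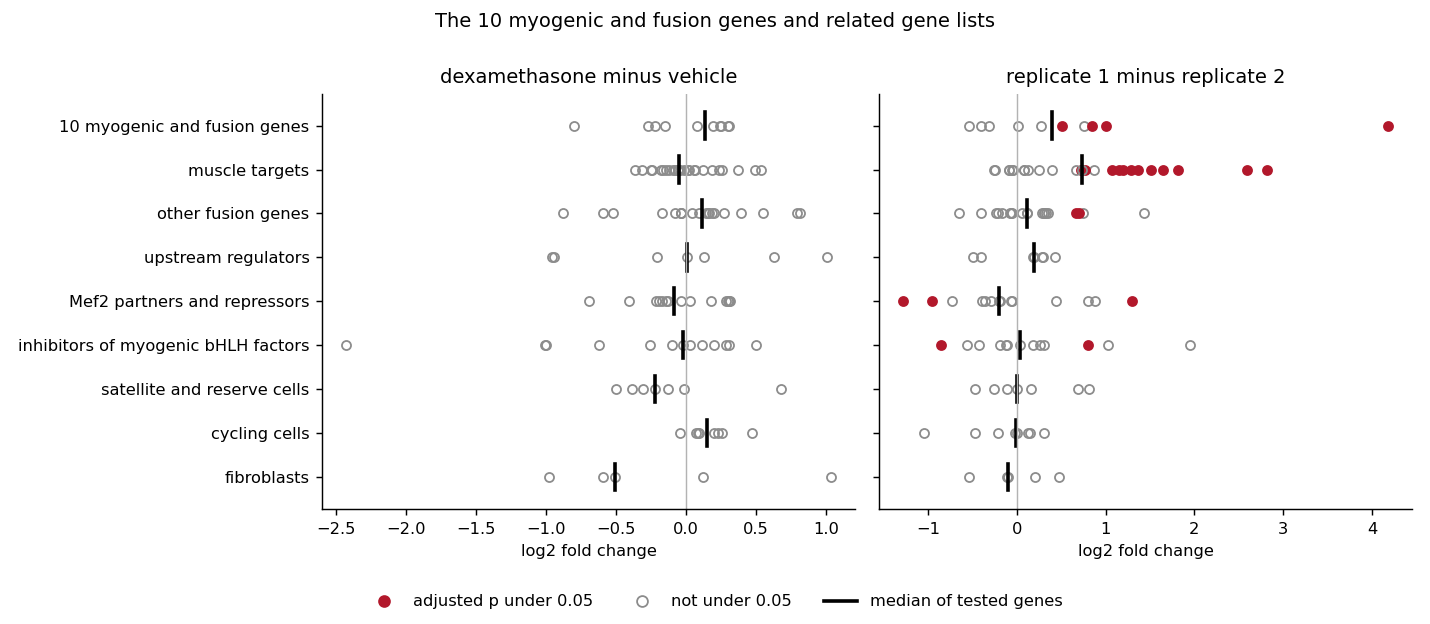
Log2 fold changes (horizontal axes) of the 10 genes and of each tested gene of the related lists, between dexamethasone and vehicle (left) and between replicate 1 and replicate 2 (right); each point is a gene, filled red where its adjusted p is under 0.05, and black bars are medians. No gene of these lists is filled on the left, and on the right 12 of 26 muscle target genes are, at a list median of 0.73.

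The partners and brakes of the MyoD family were taken next. Of the E protein genes, Tcf12 was listed at 0 in all libraries, and Tcf3 (dexamethasone minus vehicle -0.43, SE 0.309) and Tcf4 (0.042, SE 0.135) were not called. Of 16 genes for inhibitors of these bHLH factors, 13 were tested and 0 were called by treatment. Hes1, a Notch-induced repressor, had 6.92 and 5.09 CPM in vehicle and 2.90 and 3.05 CPM after dexamethasone (log2 -1.0, SE 0.260, edgeR adjusted p 0.479). Snai2, a repressor that competes for E-boxes, was at -0.62 (SE 0.206) and Bhlhe41 at 0.31 (SE 0.130), neither called. By replicate number 2 of the 13 were called (15.4%, beside 9.65% of all genes), Bhlhe40 higher in replicate 1 (log2 0.80) and Snai1 lower (-0.85). Zeb1, the most abundant of the list, was called in neither (-0.018 by treatment and -0.11 by number).

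All 14 Mef2 partners and repressors were tested, and 0 were called by treatment. The smallest p-values belonged to Mapk14, a kinase that activates Mef2 proteins (0.29, SE 0.123), the class IIa deacetylase Hdac4 (0.32, SE 0.170) and the coactivator Mamstr (-0.69, SE 0.494). By replicate number 3 of the 14 were called (21.4%, beside 9.65% of all genes). The cofactor gene Vgll2 was higher in replicate 1 (1.29), and 2 were lower there, Hdac7, a class IIa deacetylase that represses Mef2 (-1.27), and Srf (-0.96). Hdac7 had 52.8 and 70.9 CPM in replicate 1 and 136 and 163 CPM in replicate 2. Hdac9, of the same class and named after its values were seen, lay the other way without being called (log2 0.80, edgeR adjusted p 0.0722).

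**Figure D5:**
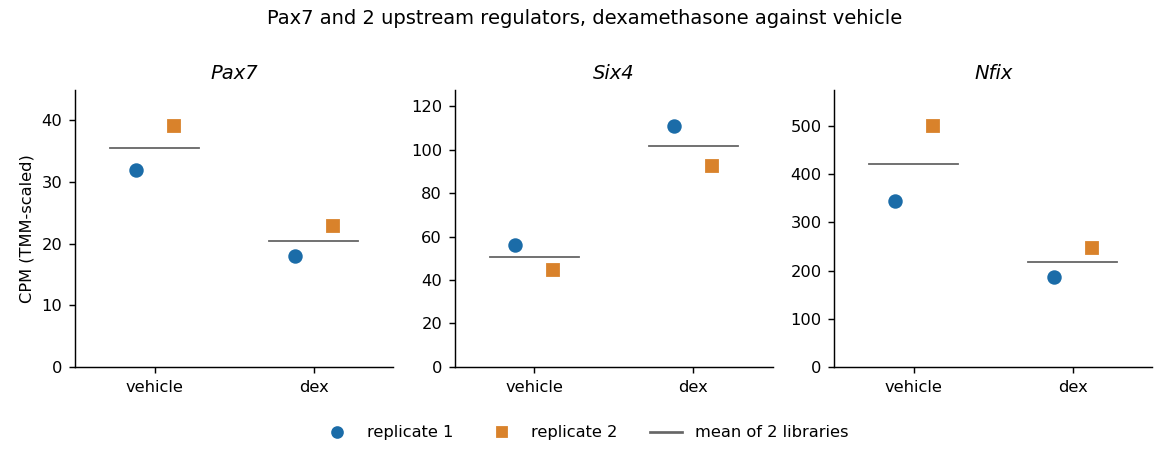
TMM-scaled CPM (vertical axes, from 0) of Pax7, Six4 and Nfix in vehicle and dexamethasone (dex) libraries; circles are replicate 1, squares replicate 2 and lines the mean of 2 libraries. In each of these 3 genes, shown for their small p-values, the treatments do not overlap, as in 27.9% of all tested genes, and none of them passed the threshold.

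Of 10 regulators that act upstream of the MyoD family, 7 were tested and 0 were called in either comparison. Six4, which encodes a homeodomain factor that activates Myog and other muscle genes, had 56.2 and 44.7 CPM in vehicle and 111 and 92.3 CPM after dexamethasone (log2 1.01, SE 0.183, edgeR unadjusted p 0.00359, adjusted p 0.240). Nfix, a factor of the fetal muscle programme, went the other way with 344 and 499.7 against 188 and 246 CPM (log2 -0.96, SE 0.252, edgeR adjusted p 0.489). Pax3, the relative of Pax7, was rare, at 0.36 to 0.91 CPM, with a log2 fold change of -0.94 (SE 0.429). Eya4, the most abundant of the list, was at 0.010 (SE 0.169).

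Among 25 other genes with a part in myoblast fusion, 20 were tested and 0 were called by treatment. Cd9, a tetraspanin of the myoblast surface, had 56.6 and 59.3 CPM in vehicle and 38.0 and 39.0 CPM after dexamethasone (log2 -0.59, SE 0.125, edgeR adjusted p 0.332). The metalloprotease gene Adam12 was at 0.79 (SE 0.179) and the annexin gene Anxa1 at 0.82 (SE 0.189), both with non-overlapping groups. By replicate number 2 of the 20 were called (10%, beside 9.65% of all genes), both higher in replicate 1: Jam2 (log2 0.70) and Arhgap26 (0.67). The most abundant genes of the list were Trio (-0.037 by treatment and 0.35 by number) and Dysf (-0.034 and -0.23), called in neither. Ncam1, Jam3 and Myof were listed at 0 in all libraries, and a listed 0 was not read as silence. Among the muscle targets, Musk, the receptor kinase of the neuromuscular junction, had 231 and 230 CPM in vehicle and 349 and 318 CPM after dexamethasone (log2 0.53, SE 0.125, edgeR adjusted p 0.394), and Tnnt2 was at 0.37 (SE 0.133).

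Finally, the genes whose values ran closest to those of Myod1 and Myog were found by the root mean square difference of log2 CPM over the 4 libraries, each gene centred on its own mean, among 8074 other genes with a mean of at least 10 CPM. Nearest to Myog was Lrrc2, with 20.5 and 9.83 CPM in vehicle and 22.7 and 11.6 CPM after dexamethasone (difference 0.0075), followed by Ctsl (0.029) and Tob1 (0.034). Nearest to Myod1 were Ptpre (45.0, 36.6, 36.0 and 29.8 CPM, difference 0.0197), Epb41 (0.0197) and Ube2g1 (0.021). The 4 values of each pair share libraries, depth and scaling, and the likeness describes these libraries only.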

How the data were processed

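The authors deposited raw read counts per gene for 4 libraries in one table. Per the submitters' processing notes, TopHat2 2.0.13, SAMtools 1.1, HTSeq 0.6.1, DESeq2 1.18.1 and the build mm9 were used. Their roles, the counted feature and the strand setting are not given in the sources used here. The labels' protocols name a stranded total RNA kit and a stranded mRNA kit.

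Of 23333 rows, 51 that repeat a gene and its counts were used once. The counts were filtered (filterByExpr, minimum count 10, minimum total 15), scaled by TMM and tested with edgeR 4.0.16 (R 4.3.3, quasi-likelihood, two-sided, Benjamini-Hochberg over 13285 genes, threshold 0.05), with treatment or replicate number as the only term. Residual degrees of freedom were 2 and prior ones 2.56 and 2.24. Intervals of fold changes are the estimate with its standard error and a t quantile on these degrees of freedom. Log2 CPM has a prior count of 2 added. The test was checked on simulated data.

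Exon lengths and overlaps came from GENCODE M21 (GRCm38), and upstream sequences from RefSeq (GRCm38.p6). As the notes name another build, their positions serve only the sequences. The genes, lists and tests were chosen with earlier results of these data known. Named from each list were up to 5 called genes, the 2 most abundant and, where none was called, the 3 of smallest p, with 5 known glucocorticoid response genes as a check, a few more being chosen after their values were seen (Acta1, Chrna1, Chrnb1, Chrnd, Chrng, Hdac9, Pax3). Alternatives were other scalings (DESeq2 size factors, upper quartile, library size only), other filters, DESeq2 1.42.0, limma-voom (limma 3.58.1), the likelihood ratio test, an additive term for the other factor, other thresholds and leaving out each library. No protein sequences were used here, and 1 gene that the rule names is not reported here.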

Additional observations from a re-analysis of the deposited data

How the results depend on the processing

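With 5 genes called by treatment, DESeq2 size factors, upper quartile scaling, library size only, at least 10 counts in every sample and an adjusted p under 0.1 gave 4 to 6. No filter beyond 1 count gave 23, DESeq2's Wald test 288, edgeR's likelihood ratio test 288, and limma-voom and an adjusted p under 0.01 gave 0 (at an unadjusted p under 0.05, 540 higher and 231 lower, and 543 and 225). Without one library the count ran from 4 (without vehicle replicate 1) to 64 (without either dexamethasone library), and was 33 without vehicle replicate 2. Of the 10 genes, 0 were called under each of these. Of the 102 tested genes of the lists, DESeq2 called 3 and the likelihood ratio test 2. The cause was not tested.

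Adding a replicate block raised the calls by treatment to 1681 genes, 2 of the 10 genes (Pax7 at -0.80, adjusted p 0.000881, and Mymk at 0.25, adjusted p 0.0277) and 32 of the lists. The labels do not say that the number marks a shared day or culture, and with 2 pairs the data cannot show it. Across 13285 genes, which are not independent, the log2 gap between the numbers in vehicle went with that in dexamethasone (r = 0.734). The block leaves 1 residual degree of freedom, fewer than the fit without it.

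By replicate number, 1282 genes, 4 of the 10 and 19 of the lists were called. Library size only gave 2445 genes, with 23.1% of the calls higher in replicate 1 against 60.1%, DESeq2's Wald test 2578, and treatment as an additive term 5884. An adjusted p under 0.1 gave 3453 and one under 0.01 gave 9. Of the 10 genes, the additive term called 9 and an adjusted p under 0.01 called 0. Of the lists, DESeq2 called 29, the additive term 58, an adjusted p under 0.1 called 32 and one under 0.01 called 1. Without any one library 0 were called in all 3 counts (the smallest numbers under an unadjusted 0.05 being 1362 and 1050, both without vehicle replicate 2), where fewer degrees of freedom are left. Mef2a was not called by the likelihood ratio test (0.51, adjusted p 0.0579), and Mef2d was by DESeq2 (-0.40, adjusted p 0.0305).

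By treatment, 86 of 89 values of the 10 genes under alternatives that keep all libraries held their direction and side, and Myf6 turned under limma-voom (-0.054). Leaving out single libraries turned 13 of 40, with ranges of -0.37 to 0.81 for Myog, -0.11 to 0.80 for Myf5, -2.98 to 3.49 for Myf6, -0.059 to 0.60 for Mymx, -0.19 to 0.36 for Mef2a, -0.65 to 0.31 for Mef2c and -0.37 to 0.063 for Mef2d. By replicate number 77 of 89 held, and Mymk turned with library size only (-0.18) and with no filter (-0.017). Leaving out libraries gave -0.12 to 0.15 for Mymk and -0.78 to 0.12 for Pax7. The mean Myog to Myod1 ratio was 11.3 per exon kilobase and 9.33 per kilobase of the whole gene. Myf6 had 7 counts in vehicle replicate 2 and is not measured by a filter of 10 in every sample.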
